A study of Mus musculus with 6 samples.

Results

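The natriuretic peptide genes *Nppa* and *Nppb*, the cardiac transcription factors *Nkx2-5*, *Tbx20*, *Tbx5* and *Gata4*, the pacemaker channel gene *Hcn4* and the atrial muscle genes *Sbk2* and *Sln* were followed in the lungs of WT and *ISM1*-/- mice. The 9 genes were picked by name, with earlier results of these data known, from the 54532 genes of the deposited count table, and each has 1 entry there. The WT mice were C57BL/6J animals bought from a supplier and the *ISM1*-/- mice, which the labels call ISM1-KO, were bred in-house on a C57BL/6J background. Both groups were 2 months old and untreated, their lungs were perfused, and each of the 3 mice per genotype gave 1 library of RNA from whole lung. Genotype and source of the animals therefore cannot be told apart, and the sexes and the allele at the *Ism1* locus are not given in the sources used here.

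Atrial natriuretic peptide, encoded by *Nppa*, is released by stretched atrial muscle and acts through a receptor that makes cyclic GMP, which promotes salt excretion and relaxes vessels. *Nkx2-5*, *Gata4*, *Tbx5* and *Tbx20* encode DNA-binding proteins that act together in heart muscle, and *Nppa* is a classical target of several of them. In rodents a sleeve of atrial-type heart muscle runs along the pulmonary veins into the lung, so RNA from whole lung normally holds transcripts of heart muscle. *Tbx5* and *Gata4* are also used outside heart muscle, *Tbx5* in lung mesenchyme and *Gata4* in the mesothelium and epicardium.

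The stretch just before the start of *Nppa* is shown because this gene had the widest range of the 9 and because the factors among the other members have known binding letters, and those of *Nppb* and *Sbk2* are shown for comparison, as the neighbouring peptide gene and as the gene with the clearest difference between genotypes. The sequences are from RefSeq on GRCm38.p6, read 5′ to 3′ on the strand of the gene and end at the base before the deposited start. They are chr4:148000472-148000721 (plus strand, 250 bases) for *Nppa*, chr4:147985650-147985787 (plus strand, 138 bases) for *Nppb* and chr7:4964407-4964656 (minus strand, 250 bases) for *Sbk2*. Capitals mark matches to the motifs searched, on either strand.
Nppa: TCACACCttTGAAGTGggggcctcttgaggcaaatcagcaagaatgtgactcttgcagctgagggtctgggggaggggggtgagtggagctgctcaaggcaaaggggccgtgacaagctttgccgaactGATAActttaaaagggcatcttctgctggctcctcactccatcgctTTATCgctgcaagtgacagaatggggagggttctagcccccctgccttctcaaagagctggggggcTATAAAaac
Nppb: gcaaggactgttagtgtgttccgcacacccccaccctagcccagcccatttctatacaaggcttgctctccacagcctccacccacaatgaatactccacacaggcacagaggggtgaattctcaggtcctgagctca
Sbk2: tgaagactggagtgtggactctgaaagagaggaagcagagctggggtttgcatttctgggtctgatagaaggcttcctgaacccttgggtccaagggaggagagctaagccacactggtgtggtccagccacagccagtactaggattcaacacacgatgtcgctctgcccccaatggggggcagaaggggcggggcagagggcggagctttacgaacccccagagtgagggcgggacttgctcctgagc
The motifs were GATAA for GATA factors, TNAAGTG for Nkx2-5, GGTGTGA for T-box factors, TATAAA for the TATA box, and the CArG box, and no marked matches overlapped. The *Nppa* stretch held a T-box match on the reverse strand whose first base lies 250 bases before the start, an Nkx2-5 match at 241, GATA matches at 121 on the forward and 75 on the reverse strand, and a TATA box at 9. Of 27025 promoter windows searched over 250 bases, 23% held GATAA, 10% TNAAGTG, 3.31% GGTGTGA, 13% TATAAA and 1.4% a CArG box. A promoter window was given for 6 of the 9 genes, and those of *Nppb*, *Sbk2*, *Nkx2-5*, *Tbx20* and *Hcn4* held none of these letters. For *Nppb* the RefSeq start lies 112 bases inside the deposited gene, so only the 138 bases before both starts are printed. The lack of matches for *Nppb* is given for these bases alone and not for the 112 bases next to its RefSeq start.

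The 6 libraries held 37606133 to 42345042 counts, and no pair agreed within sampling noise. The lung label was borne out by the alveolar markers, among them *Sftpc*, the surfactant protein C gene, at 11810.9 to 12786.6 CPM, where CPM is the count scaled to library size by TMM, as edgeR's cpm gives it. *Ism1* transcript was still present in the libraries labelled ISM1-KO, at 65.5, 66.1 and 75.7 CPM against 82.2, 77.5 and 76.9 CPM in WT libraries 1, 2 and 3 (log2 fold change −0.19 ± 0.0709 SE, adjusted p = 0.217), so its level does not check the genotype labels. WT replicate 1 stood apart from the other WT libraries in heart muscle transcripts, and the estimate for each of the 9 genes is given with and without it. Over all genes tested it also lay further from WT replicates 2 and 3 (chi-square per degree of freedom 16.3 and 17.4) than these from each other (5.61). On this measure sampling noise alone gives about 1. The 18689 genes that reached 0.5 CPM in any library were tested by the quasi-likelihood method of edgeR, with p-values adjusted over all of them by Benjamini-Hochberg. A gene was called, and is said to have changed, where the adjusted p was below 0.1 and the difference 2-fold or more.

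Of the 9 genes, only *Sbk2* changed by this rule, and it was lower in *ISM1*-/- lungs, where 0.284% of all genes tested were called lower. The fitted log2 fold change (*ISM1*-/- over WT) was below 0 for 8 of the 9 genes, against 48.8% of all genes, and at or below −1 for 7 of them, against 1.09% of all genes. An unadjusted p under 0.05 was reached by 8 of the 9 genes, all lower, against 9.3% of all genes lower. *Nppb* and *Nkx2-5* entered these tallies only because WT replicate 1, where they are high, reached the filter of 0.5 CPM, so their low *ISM1*-/- values are tied to the filter and support nothing. Of the 7 genes that passed the filter in several libraries, 6 had a log2 fold change below 0, 5 one at or below −1 and 6 an unadjusted p under 0.05. All 9 genes were chosen with earlier results of these data known, so their shares beside those of all genes describe the list and test nothing. All 9 genes were highest in WT replicate 1, which exceeded the mean of WT replicates 2 and 3 at least 2-fold for 7 of the 9 genes and for 1.59% of all genes tested. For *Nppb* and *Nkx2-5*, counted here, this excess is tied to the filter as well. The other genes with such an excess were *Nppa* (14.5-fold), *Hcn4* (3.35), *Sbk2* (2.90), *Tbx20* (2.35) and *Sln* (2.32). Without WT replicate 1, a log2 fold change at or below −1 was left for 1 of the 9 genes, *Sbk2*, against 0.68% of all genes, and the median over the 9 genes moved from −1.29 to −0.55 (from −1.20 to −0.54 over the 7). *Sbk2* was also the 1 gene of the 9 called in that fit, where 0.182% of all genes were called lower, and 4 of the 9 had an unadjusted p under 0.05, against 14.4% of all genes in either direction. The count of calls also moved with the processing. DESeq2 called 4 of the 9 genes lower, namely *Sbk2*, *Tbx20*, *Hcn4* and *Nkx2-5*, where it called 0.358% of all genes lower. The call of *Nkx2-5* is tied to the filter, and DESeq2 called 3 of the 7 genes that passed it in several libraries. Without the filter on low counts, edgeR called 7 of the 9 genes lower, against 0.563% of all genes in that fit. In RNA from whole tissue, fewer cells of a type and less RNA per cell cannot be told apart.

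**Figure D1:**
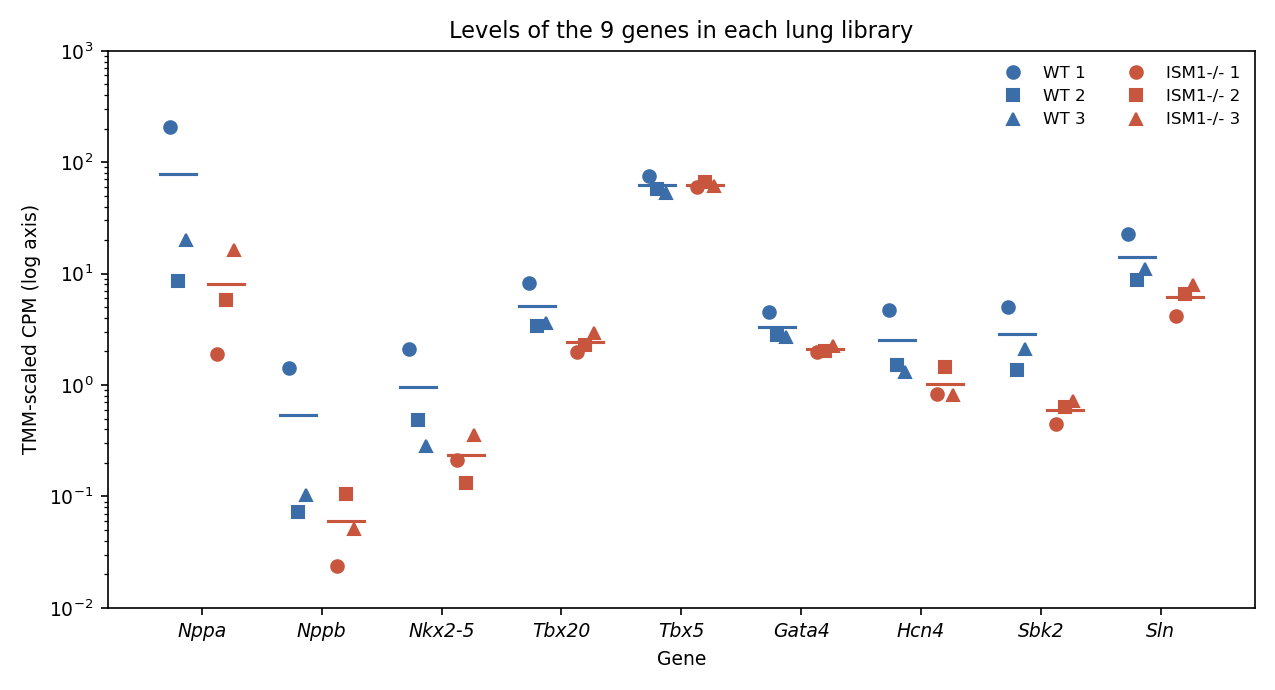
Levels of the 9 genes in TMM-scaled CPM on a log axis, one symbol per library (blue, WT; red, *ISM1*-/-; circles, squares and triangles, replicates 1, 2 and 3) with a bar at the mean of the 3 libraries. The blue circle, WT replicate 1, is the highest point of every gene, from 75.3 CPM for *Tbx5* against 53.3 to 65.8 CPM elsewhere to 208 CPM for *Nppa* against 1.90 to 20.0 CPM elsewhere.

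*Nppa* (chr4:148000722-148002079, plus strand, GRCm38), the atrial natriuretic peptide gene, stood at 208, 8.65 and 20.0 CPM in WT replicates 1, 2 and 3. In *ISM1*-/- replicates 1, 2 and 3 it stood at 1.90, 5.80 and 16.4 CPM. WT replicate 1 was far above all others, while *ISM1*-/- replicate 3 lay above WT replicate 2, so the groups overlapped. The means were 79.0 ± 112 and 8.04 ± 7.52 CPM (SD, n = 3), and the spread among WT libraries was larger than the difference between the means (log2 fold change −3.30 ± 1.09 SE, adjusted p = 0.166). Leaving out WT replicate 1 gave −0.83 ± 0.644 (adjusted p = 0.635), with a 95% interval from −2.28 to 0.61. The antisense gene *Gm13054* covers 532 exonic bases of *Nppa* (61.5% of its exonic bases) on the opposite strand, and it collected 392, 39 and 84 reads in the WT libraries against 27, 27 and 50 reads in the *ISM1*-/- libraries. Its highest library was the same as that of *Nppa* and it did not pass the test either (−2.35 ± 0.757, adjusted p = 0.155). The strand setting of the counting is not given in the sources used here, so reads of this pair are uncertain.

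*Nppb* (chr4:147985788-147987205, plus strand), which encodes the B-type peptide and precedes *Nppa* on the same chromosome, was near the limit of detection outside 1 library. It had read counts of 54, 3 and 4 in WT and of 1, 4 and 2 in *ISM1*-/- replicates 1, 2 and 3. The other 5 libraries could not be ordered at this depth, and *Nppb* passed the filter on low counts only through WT replicate 1. The estimate was −3.10 ± 1.21 (adjusted p = 0.239) with all libraries and −0.55 ± 0.876 (adjusted p = 0.842) without that library.

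*Sbk2* (chr7:4940512-4964406, minus strand), a gene for a serine/threonine kinase of the SH3-binding family that is enriched in atrial muscle, fell in *ISM1*-/- lungs. Its levels were 5.04, 1.35 and 2.12 CPM in WT and 0.447, 0.633 and 0.718 CPM in *ISM1*-/- replicates 1, 2 and 3. Every *ISM1*-/- library lay below every WT library, and the same held without WT replicate 1. The mean was 2.84 ± 1.95 CPM in WT and 0.599 ± 0.138 CPM in *ISM1*-/- lungs, 21.1% of the WT mean (log2 fold change −2.24 ± 0.468, adjusted p = 0.0421). Leaving out WT replicate 1, the fall was 1.53 on the log2 scale (−1.53 ± 0.318, adjusted p = 0.0552, 95% interval −2.25 to −0.81) and the call was kept. It was lost without *ISM1*-/- replicate 1 (adjusted p = 0.164) and without *ISM1*-/- replicate 2 (adjusted p = 0.137). The gene rests on 19 to 190 counts per library. The 3′ end of *Sbk2* overlaps *Ssc5d* on the opposite strand without shared exonic bases, and *Ssc5d* differed by −0.30 ± 0.0906 (adjusted p = 0.132).

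*Sln* (chr9:53850164-53854560, plus strand) encodes sarcolipin, a small membrane protein that inhibits the SERCA calcium pump and is typical of atrial rather than ventricular muscle in mice. It stood at 22.8, 8.77 and 10.9 CPM in WT and 4.19, 6.51 and 7.84 CPM in *ISM1*-/- replicates 1, 2 and 3. All *ISM1*-/- libraries lay below all WT libraries, the nearest being *ISM1*-/- replicate 3 and WT replicate 2. The means were 14.2 ± 7.56 and 6.18 ± 1.85 CPM, and *Sln* missed the threshold (−1.20 ± 0.339, adjusted p = 0.108). It was −0.67 ± 0.227 (adjusted p = 0.207, 95% interval −1.18 to −0.16) without WT replicate 1, and without *ISM1*-/- replicate 3 it passed (adjusted p = 0.0976).

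*Nkx2-5* (chr17:26838664-26841565, minus strand), the homeobox factor that marks the cardiac lineage, gave read counts of 80, 20 and 11 in WT and of 9, 5 and 14 in *ISM1*-/- libraries. At 2.12, 0.482 and 0.284 CPM against 0.212, 0.132 and 0.359 CPM the groups overlapped, and only WT replicate 1 reached the filter of 0.5 CPM. The estimate was −2.01 ± 0.738 (adjusted p = 0.209), and −0.71 ± 0.52 (adjusted p = 0.614) without that library. *Tbx20* (chr9:24718138-24774303, minus strand), a T-box factor of heart muscle, stood at 8.22, 3.40 and 3.59 CPM in WT and 1.98, 2.29 and 2.95 CPM in *ISM1*-/- libraries. Here the groups did not overlap, also without WT replicate 1, but the test was not passed with it (−1.07 ± 0.33, adjusted p = 0.139) or without it (−0.54 ± 0.202, adjusted p = 0.253).

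*Gata4* (chr14:63198922-63271692, minus strand), a zinc finger factor of heart muscle and of the mesothelium, stood at 4.51, 2.79 and 2.69 CPM in WT and 1.98, 2.03 and 2.26 CPM in *ISM1*-/- libraries. The groups did not overlap, with or without WT replicate 1, and the *ISM1*-/- libraries were close to each other (2.09 ± 0.149 CPM against 3.33 ± 1.02 CPM in WT). The estimate was −0.67 ± 0.222 (adjusted p = 0.165), and −0.39 ± 0.18 (adjusted p = 0.367) without WT replicate 1. *Tbx5* (chr5:119832668-119885219, plus strand), the T-box factor of heart, forelimb and lung mesenchyme, was the one member with level means, at 75.3, 57.8 and 53.3 CPM in WT and 60.1, 65.8 and 61.4 CPM in *ISM1*-/- libraries. The WT libraries enclosed all 3 *ISM1*-/- libraries (62.1 ± 11.6 against 62.4 ± 3.0 CPM, log2 fold change 0.01 ± 0.114, adjusted p = 0.987, 95% interval −0.25 to 0.26). Both remaining WT libraries lay below all *ISM1*-/- libraries when WT replicate 1 was left out (0.17 ± 0.0742, adjusted p = 0.337), and 15% of all genes did the same.

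*Hcn4* (chr9:58823412-58863175, plus strand), the channel that carries most of the pacemaker current in the sinoatrial node, stood at 4.75, 1.52 and 1.32 CPM in WT and 0.823, 1.45 and 0.820 CPM in *ISM1*-/- libraries. *ISM1*-/- replicate 2 lay between WT replicates 2 and 3, so the groups overlapped (−1.29 ± 0.481, adjusted p = 0.217). The estimate was −0.46 ± 0.31 (adjusted p = 0.571) when WT replicate 1 was left out. Across the 9 genes, 4 had no overlap between the genotypes (*Sbk2*, *Sln*, *Tbx20* and *Gata4*), all lower in *ISM1*-/- lungs, against 12.3% of all genes tested. The same 4 had no overlap when WT replicate 1 was left out, against 17.3% of all genes. The lowest library was *ISM1*-/- replicate 1 for 6 of the 9 genes.

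**Figure D2:**
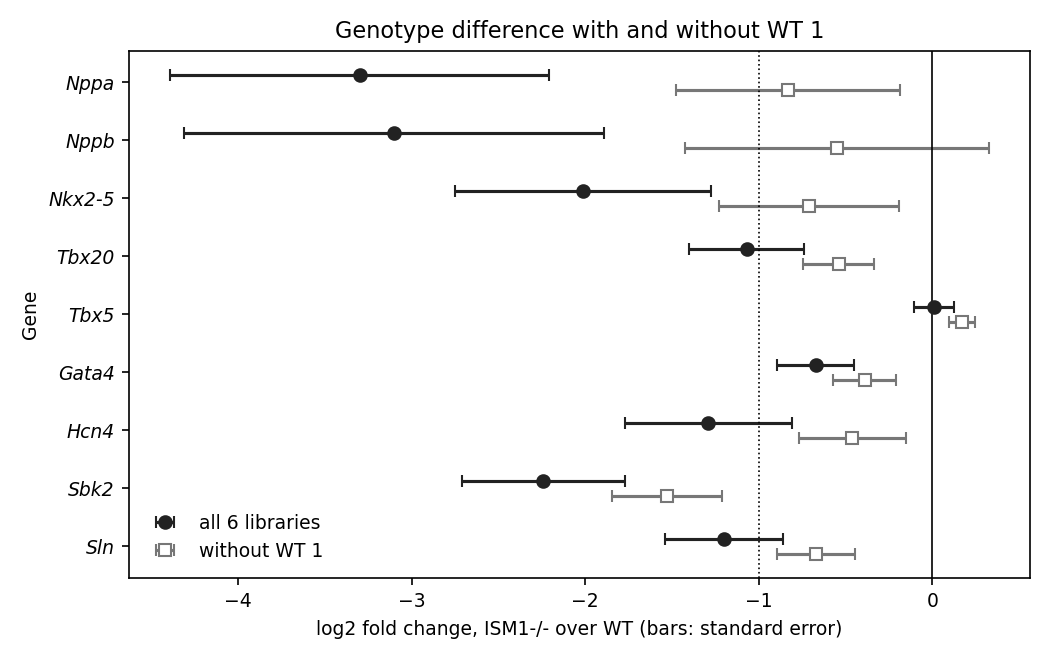
Log2 fold change of each gene, *ISM1*-/- over WT, from the edgeR fit with all 6 libraries (filled) and without WT replicate 1 (open), with bars of 1 standard error; the solid line is no difference and the dotted line a 2-fold fall. Without that library *Nppa* moves from −3.30 to −0.83 and *Nppb* from −3.10 to −0.55, while *Sbk2*, at −1.53, is the only gene left of the dotted line.

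Per length of transcript, in deposited FPKM, the order of the 9 genes rested largely on WT replicate 1. In WT lungs *Nppa* came first on average (91.6 ± 130 FPKM), ahead of *Tbx5* (32.4 ± 6.08 FPKM), *Sln* (10.8 ± 5.76 FPKM), *Sbk2* (2.37 ± 1.63 FPKM), *Gata4* (1.80 ± 0.554 FPKM), *Tbx20* (1.64 ± 0.886 FPKM), *Nppb* (0.688 ± 0.997 FPKM), *Nkx2-5* (0.633 ± 0.663 FPKM) and *Hcn4* (0.414 ± 0.316 FPKM). The ranges of neighbours overlapped except between *Tbx5* and *Sln* and between *Sln* and *Sbk2*. The first place of *Nppa* rested on WT replicate 1, at 242 FPKM, since WT replicates 2 and 3 were at 10 and 23.2 FPKM, below their *Tbx5* levels of 30.1 and 27.8 FPKM. In *ISM1*-/- lungs *Tbx5* came first (32.3 ± 1.65 FPKM), followed by *Nppa* (9.20 ± 8.52 FPKM), *Sln* (4.66 ± 1.36 FPKM), *Gata4* (1.12 ± 0.0675 FPKM), *Tbx20* (0.773 ± 0.151 FPKM), *Sbk2* (0.498 ± 0.111 FPKM), *Hcn4* (0.168 ± 0.0598 FPKM), *Nkx2-5* (0.152 ± 0.0734 FPKM) and *Nppb* (0.0766 ± 0.0535 FPKM). There, neighbours overlapped only between *Nppa* and *Sln*, *Hcn4* and *Nkx2-5*, and *Nkx2-5* and *Nppb*. Over WT replicates 2 and 3 alone the order was close to that in *ISM1*-/- lungs, with *Tbx5* first (28.9 FPKM), *Nppa* second (16.6 FPKM) and *Nppb* last (0.113 FPKM). *Sbk2* (1.45 FPKM) then lay beside *Gata4* (1.48 FPKM) and *Tbx20* (1.13 FPKM) with overlapping ranges, whereas it was below both in every *ISM1*-/- library.

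The contractile genes of heart muscle moved with these values. The summed level of 16 cardiomyocyte contractile markers, led by *Myh6*, *Actc1*, *Tnnt2* and *Ttn*, was 1720.4, 656 and 765 CPM in WT and 374, 511 and 693 CPM in *ISM1*-/- libraries. WT replicate 1 was again highest, *ISM1*-/- replicate 1 lowest, and the groups overlapped. Of 15 markers tested, all 15 had a log2 fold change below 0 (median −0.97, and −0.45 without WT replicate 1) and 1, *Myl7*, was called lower. The 6 ventricular markers summed to 43.3 to 51.2 CPM in WT and 38.3 to 45.3 CPM in *ISM1*-/- libraries, led by *Myh7* at 30.3 to 40.1 CPM, while the defining *Myl2* (0 to 9 counts) and *Irx4* (0 counts in every library) were at or near 0. The summed level of the 10 skeletal markers was lower in every *ISM1*-/- library (14.4 to 24.4 CPM in WT and 8.65 to 13.4 CPM in *ISM1*-/- lungs). This sum was led by *Ckm* and *Tnnt3*, and single markers differed. *Mylpf* was higher in every *ISM1*-/- library (1.53, 1.55 and 1.69 CPM against 1.14, 1.30 and 1.14 CPM in WT), and *Tnni2* overlapped. Only 4 of the 10 passed the filter, and *Myh4* and *Myog* were at 0 in all. The part of these muscle types in the values of the 9 genes was not tested.

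To set the 9 genes against the amount of heart muscle transcript in each library, their CPM were expressed per 1000 CPM of these 16 genes, as a description without a test. *Tbx20* then lay at 4.78, 5.18 and 4.70 in WT and 5.28, 4.49 and 4.25 in *ISM1*-/- libraries, with nearly equal means (4.88 ± 0.256 and 4.67 ± 0.537). *Sln* lay at 13.3, 13.4 and 14.3 in WT and 11.2, 12.7 and 11.3 in *ISM1*-/- libraries. On this scale WT replicate 1 no longer stood apart for either gene. A small gap between the genotypes was left for *Sln*, with an *ISM1*-/- mean of 0.862 of the WT mean. The genotypes overlapped with *Myh6* alone as the denominator (0.927 of the WT mean). They also overlapped with *Ttn*, *Myl2*, *Myl3* and *Myh7* left out of it (0.889).

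*Sbk2* kept its difference on this scale, at 2.93, 2.06 and 2.77 in WT and 1.19, 1.24 and 1.04 in *ISM1*-/- libraries. The groups did not overlap and the *ISM1*-/- mean was 0.447 of the WT mean, with 0.486 of it against *Myh6* alone. *Sbk3*, the neighbouring kinase gene of the same family (chr7:4965260-4971168), was lower as well per 1000 CPM of contractile genes, at 15.8, 13.5 and 15.4 in WT and 6.35, 10.8 and 10.6 in *ISM1*-/- libraries. *Nppa* kept the excess of WT replicate 1, at 121 against 13.2 and 26.2 in the other WT libraries and 5.09, 11.4 and 23.7 in *ISM1*-/- libraries. *Nppb* did so too, at 0.832 in that library against 0.0628 to 0.206 elsewhere. Apart from WT replicate 1 the genotypes overlapped for both peptides.

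The other genes overlapped between genotypes on this scale or turned. *Gata4* ranged from 2.62 to 4.26 in WT and from 3.25 to 5.28 in *ISM1*-/- libraries, *Hcn4* from 1.72 to 2.76 and from 1.18 to 2.84, and *Nkx2-5* from 0.372 to 1.23 and from 0.258 to 0.565. *Tbx5* was higher per contractile transcript in every *ISM1*-/- library (161, 129 and 88.5) than in every WT library (43.8, 88.1 and 69.6), the nearest values being 88.5 and 88.1, while the groups overlapped against *Myh6* alone. The summed level of lung mesenchyme markers other than *Tbx5* was 2269.6 to 2366.7 CPM in WT and 2469.7 to 2542 CPM in *ISM1*-/- libraries. Singly these 9 markers went both ways, with a log2 fold change above 0 for 6 and below 0 for 3. The 1 marker that passed the adjusted p was lower, as were 3.34% of all genes. The median ratio over the 9 genes was 2.93, 4.26 and 3.52 in WT and 5.09, 3.97 and 3.25 in *ISM1*-/- libraries. On the log2 scale it was 0.20 higher in *ISM1*-/- lungs, less than the pooled spread between libraries of 0.298. Each median is the value of a single middle gene, which differs between libraries, so it does not summarise the 9 genes. The *ISM1*-/- mean was above the WT mean only for *Tbx5* (1.88 of it) and *Gata4* (1.20).

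**Figure D3:**
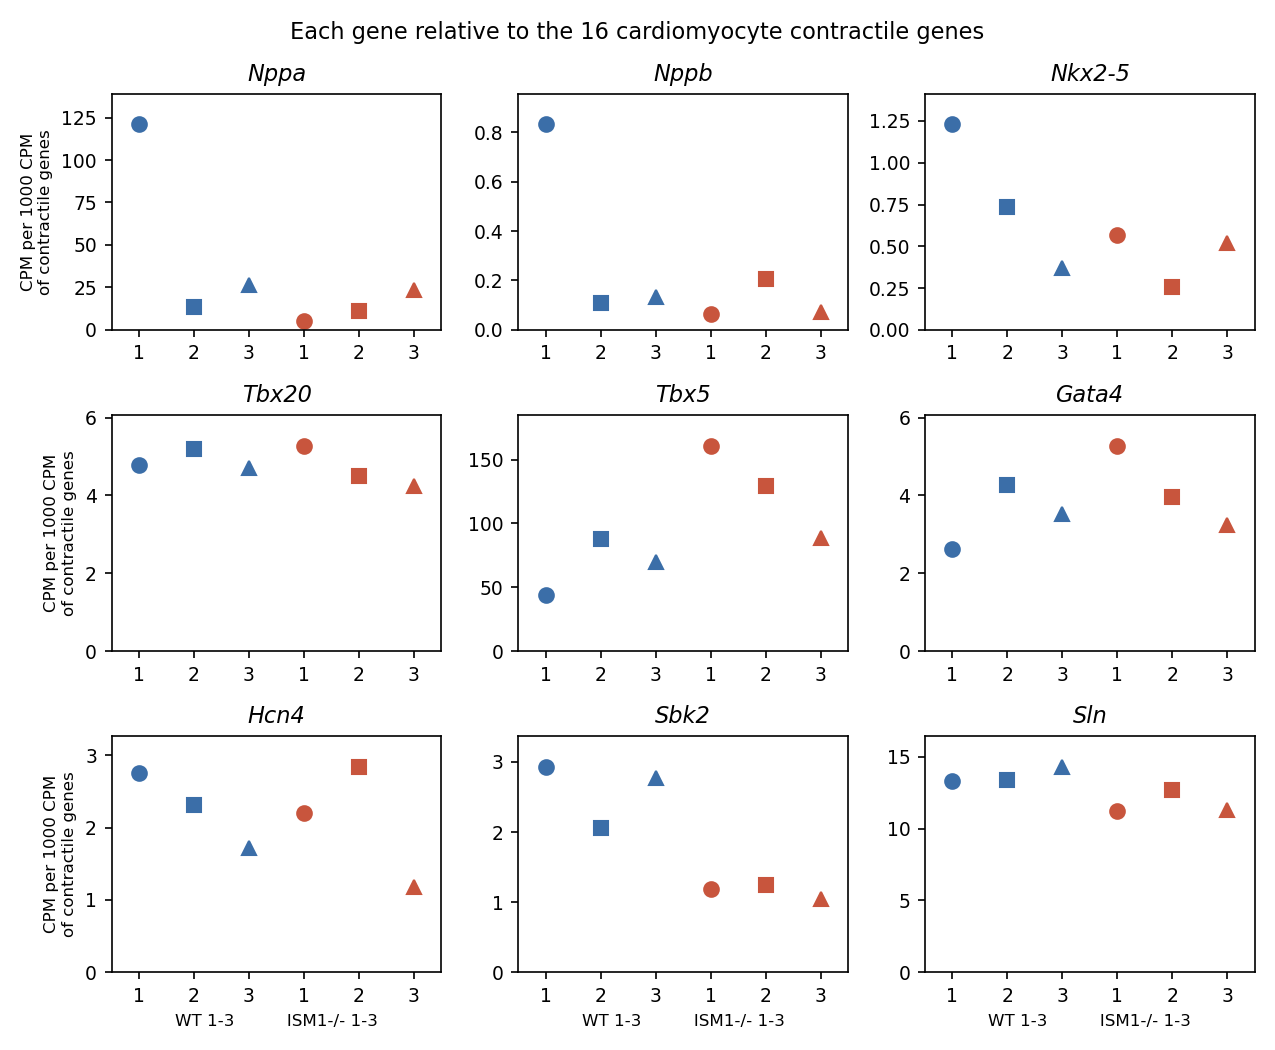
CPM of each gene per 1000 CPM of the 16 cardiomyocyte contractile genes, one panel per gene with a linear axis from 0, for WT (blue) and *ISM1*-/- (red) replicates 1 to 3. *Tbx20* is level over the 6 libraries (4.25 to 5.28), *Sbk2* separates the genotypes (2.06 to 2.93 against 1.04 to 1.24), and *Nppa* and *Nppb* stand out in WT replicate 1 (121 and 0.832).

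The markers of other cell types in whole lung were compared in the same way. The summed level of adipocyte markers was lower in every *ISM1*-/- library (162 to 205 CPM in WT and 85.2 to 131 CPM in *ISM1*-/- lungs). Singly, 8 of the 10 were lower without overlap, against 12.3% of all genes. Of the 10, 6 were called lower (*Adipoq*, *Plin1*, *Lep*, *Retn*, *Pck1* and *Fabp4*), against 0.284% of all genes. Leaving out WT replicate 1, 4 of them were still called (*Adipoq*, *Plin1*, *Lep* and *Fabp4*), against 0.182% of all genes called lower. *Lep* passed the filter on low counts only through WT libraries, so its part in these counts is tied to the filter and supports nothing. Smooth muscle markers summed to 642 to 742 and 542 to 657 CPM, and mesothelial and epicardial markers other than *Gata4* to 443 to 503 and 480 to 565 CPM. Their part in the values of the 9 genes was not tested either.

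Most other genes of the natriuretic peptide system lay near no difference. Of 13 listed, 10 were tested and 0 were called by edgeR, DESeq2 or limma on FPKM, against 0.567% of all genes called by edgeR in either direction. An unadjusted p under 0.05 in edgeR was reached by 2 lower, against 9.3% of all genes, and 1 higher. The median log2 fold change was −0.04 (0.00 over all genes). *Npr3*, the receptor that clears natriuretic peptides, was at 104, 130 and 126 CPM in WT and 176, 179 and 170 CPM in *ISM1*-/- libraries, without overlap. It passed the adjusted p, as 1.38% of all genes did in this direction, but not the fold (0.55 ± 0.0825, adjusted p = 0.0163, and 0.45 with adjusted p = 0.0210 without WT replicate 1). *Corin*, the protease that cleaves the precursor of atrial natriuretic peptide, was likewise highest in WT replicate 1, at 8.49, 1.90 and 3.34 CPM in WT and 0.729, 1.27 and 2.46 CPM in *ISM1*-/- libraries (−1.62 ± 0.546, adjusted p = 0.172). *Npr1*, the cyclic GMP-forming receptor, lay between 215 and 224 CPM in all libraries (−0.03, adjusted p = 0.829). The receptor gene *Npr2* (0.02, adjusted p = 0.931), the phosphodiesterase gene *Pde5a* (0.18, adjusted p = 0.342), the kinase genes *Prkg1* (0.14) and *Prkg2* (−0.12) and the protease genes *Mme* (−0.15), *Furin* (−0.10) and *Ide* (−0.04) did not pass either. *Nppc*, *Pde2a* and *Ostn* were below the filter.

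Of 15 atrial chamber genes other than the members, 2 fell in the edgeR fit, *Sbk3* and *Myl7*, and DESeq2 called neither. *Sbk3* was at 27.2, 8.89 and 11.8 CPM in WT and 2.38, 5.53 and 7.33 CPM in *ISM1*-/- libraries (−1.66 ± 0.446, adjusted p = 0.0940). *Myl7*, the atrial regulatory light chain gene, was at 95.9, 40.5 and 50.4 CPM in WT and 20.1, 29.4 and 37.0 CPM in *ISM1*-/- libraries (−1.11 ± 0.302, adjusted p = 0.0970). The groups did not overlap for either, but without WT replicate 1 neither passed (−1.03 with adjusted p = 0.206 and −0.66 with adjusted p = 0.171). The list had 14 of 15 log2 fold changes below 0, against 48.8% of all genes, and a median of −0.95, or −0.44 without WT replicate 1. In that library 14 of 15 genes were highest. *Bmp10*, counted in both tallies, passed the filter on low counts only through WT replicate 1, so its part is tied to the filter and supports nothing. Among its most abundant genes, *Myh6* (−1.13, adjusted p = 0.181), *Pam* (−0.14, adjusted p = 0.477), *Dkk3* (0.02, adjusted p = 0.950) and *Stard10* (−0.25, adjusted p = 0.0656) did not pass the rule. *Stard10* missed it by the fold alone, and 3.34% of all genes passed the adjusted p in this direction.

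*Bmp10*, a growth factor gene of the atrial wall that is named here after its values were seen, had 643 counts in WT replicate 1, against 1 and 0 counts in WT replicates 2 and 3 and 1, 0 and 0 counts in *ISM1*-/- libraries. It exceeded 1 count in 1 library of 6 and its fitted fold change (−8.94, adjusted p = 0.147) sets no bound. Like *Nppa* and *Nppb*, it was highest in WT replicate 1.

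Of 22 other cardiac transcription factors, 19 were tested and 0 were called by edgeR, DESeq2 or limma on FPKM. In edgeR 3 were lower, against 9.3% of all genes, and 1 higher at an unadjusted p under 0.05. The median log2 fold change was −0.07. The most abundant of them, *Hopx* (0.15, adjusted p = 0.626), *Tbx2* (0.11, adjusted p = 0.612), *Mef2a* (0.07, adjusted p = 0.710) and *Tbx3* (0.30, adjusted p = 0.109), stood at over 150 CPM in every library and are also used by lung cells. *Shox2*, a sinoatrial node factor, gave read counts of 58, 16 and 21 in WT and of 7, 12 and 11 in *ISM1*-/- libraries (−1.68, adjusted p = 0.167). It passed the filter only through WT libraries, so its place among the 3 lower factors is tied to the filter. Of 22 other pacemaker and conduction genes, 18 were tested and 0 were called by edgeR, with a median of −0.26. At an unadjusted p under 0.05, 8 were lower, against 9.3% of all genes, and 3 were higher. Among the 8, *Shox2* and *Cntn2* passed the filter only through WT libraries, so their part in this count is tied to the filter and supports nothing. DESeq2 called 1 gene of this list. Among channel genes related to *Hcn4*, *Hcn3* gave −0.22 (adjusted p = 0.851), and *Hcn2* ranged from 1.73 to 3.29 CPM in WT and from 2.31 to 3.14 CPM in *ISM1*-/- libraries. The abundant members of the list were *Tbx3*, the calcium channel gene *Cacna1d* (−0.19, adjusted p = 0.332) and the connexin genes *Gja5* (−0.02, adjusted p = 0.955) and *Gjc1* (0.36, adjusted p = 0.0791), the last of which passed the adjusted p but not the fold.

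Among the genes of the SERCA pump that sarcolipin inhibits and of calcium cycling, 14 other than *Sln* were tested and 0 were called by edgeR, DESeq2 or limma on FPKM. In edgeR 7 were lower, against 9.3% of all genes, and 1 higher at an unadjusted p under 0.05. The median was −0.47. *Atp2a2*, the pump of heart muscle, was at 631, 411 and 418 CPM in WT and 314, 345 and 396 CPM in *ISM1*-/- libraries, without overlap (−0.47 ± 0.154, adjusted p = 0.165). Values near those of *Sln* were found for the calcium release channel gene *Ryr2* (−0.99, adjusted p = 0.116), for *Pln*, the phospholamban gene (−1.13, adjusted p = 0.189), and for *Casq2* (−0.95), *Hrc* (−1.24) and *Trdn* (−1.13) of the calcium store. *Atp2a3*, a pump of non-muscle cells, passed the adjusted p but not the fold (0.27 ± 0.0619, adjusted p = 0.0549). The remaining genes, *Jph2* (−0.37), *Cacna1c* (−0.01), *Asph* (−0.09), *Slc8a1* (−0.02), *Atp2a1* (−0.47), *Casq1* (0.08) and *Mrln* (−0.62), did not pass.

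**Figure D4:**
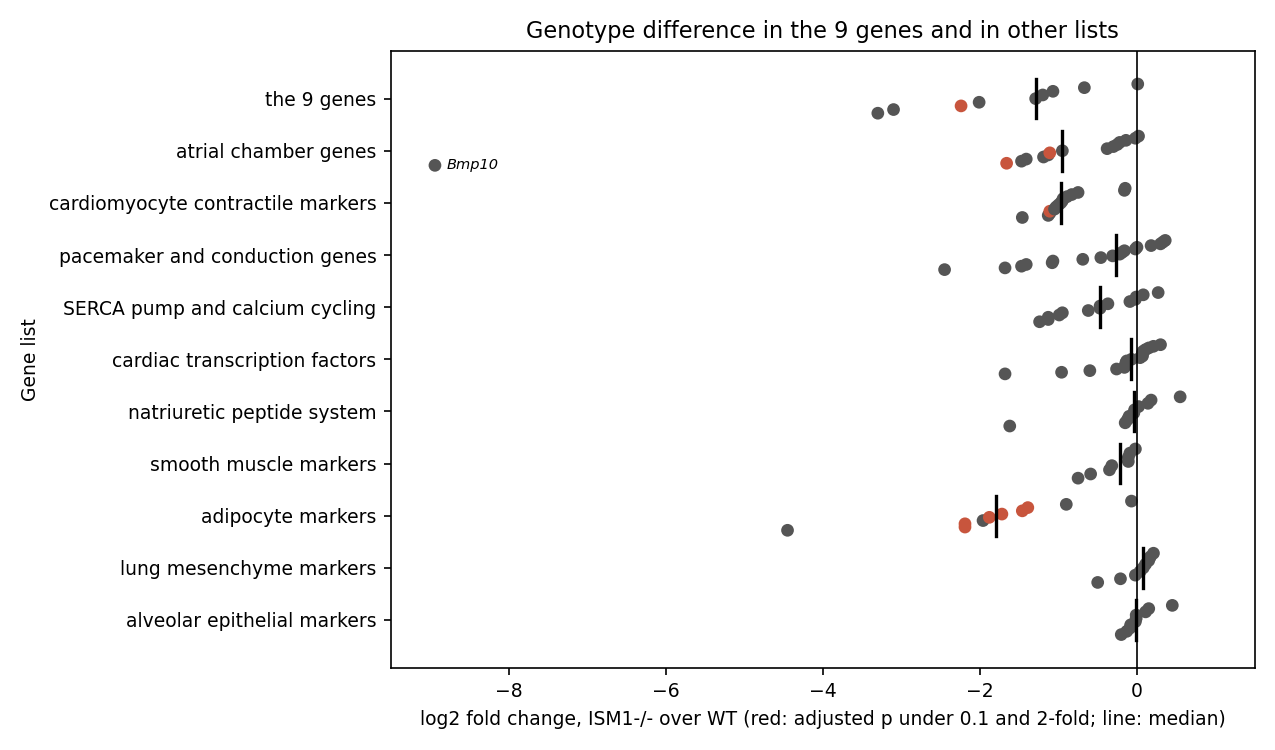
Log2 fold change, *ISM1*-/- over WT, of each gene tested in the 9 genes and in the other lists (members removed), with a vertical bar at the median of each list and red points for the genes called. The medians of the 9 genes (−1.29), of the atrial chamber genes (−0.95) and of the contractile markers (−0.97) lie left of those of the cardiac transcription factors (−0.07) and the natriuretic peptide system (−0.04), and *Bmp10* lies at −8.94.

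Over the 6 libraries the 9 genes varied together, except *Tbx5*. Pearson correlations of log2 CPM ranged from 0.821 to 0.989 for the 28 pairs without *Tbx5* (median 0.911) and from 0.349 to 0.763 for the 8 pairs with it (median 0.542). These are descriptions over 6 libraries that share the high values of WT replicate 1. The mean standardised profile of the 9 genes was 1.77, −0.06 and −0.04 in WT and −0.90, −0.44 and −0.33 in *ISM1*-/- replicates 1, 2 and 3.

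Of 15869 other genes whose mean level was 1 CPM or more, the ones most like this profile were *Mybphl*, a myosin-binding protein gene of the atrium (r = 0.997 over 6 libraries), *Mcur1* (0.996), *Dgat2* (0.995), *Prune2* (0.995), *Actn2*, the sarcomeric alpha-actinin gene (0.993), *Abcc8* (0.990), *Gm31251* (0.989), *Fam122b* (0.987), *Elovl6* (0.986) and *Chchd7* (0.986). The adjusted p of all 10 was 0.119 or more between genotypes. *Mybphl* stood at 19.2, 6.75 and 6.98 CPM in WT and 4.05, 5.17 and 5.25 CPM in *ISM1*-/- libraries (−1.19, adjusted p = 0.137). By list, the median correlation with the profile was 0.968 for contractile markers, 0.924 for other atrial chamber genes, 0.812 for the SERCA pump list, 0.783 for ventricular markers and 0.747 for other pacemaker genes. Lists of other cell types came close to these, with 0.775 for adipocyte, 0.731 for smooth muscle and 0.642 for skeletal markers. The median was 0.256 for the other natriuretic genes, 0.207 for other cardiac transcription factors, 0.160 for lung mesenchyme, −0.131 for alveolar epithelial and −0.555 for mesothelial markers.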

How the data were processed

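Lungs of 3 WT and 3 *ISM1*-/- mice were perfused and their RNA extracted, enriched for poly-A transcripts and sequenced as strand-specific libraries in read pairs. The authors filtered the reads, mapped them to GRCm38 with STAR (CASAVA and STAR are listed in the submitters' processing notes without versions) and deposited raw counts per gene, which are whole numbers without normalization. The authors also deposited FPKM values, counts divided by the library total and the gene length, which were used here only to order the genes by level and in 1 alternative. The counting program, annotation release and strand setting are not given in the sources used here.

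The test was the quasi-likelihood test of edgeR 4.0.16 in R 4.3.3 on the deposited counts (TMM, glmQLFit, glmQLFTest, no covariates, Benjamini-Hochberg adjustment), over the 18689 genes that reached 0.5 CPM in any library. Calls needed an adjusted p below 0.1 and a 2-fold difference, thresholds that follow the study's results. Values are TMM-scaled CPM, mean ± SD, and p-values measure the spread between 3 mice per genotype. Alternatives were DESeq2 1.42.0, RLE scaling, other filters, other thresholds, the replicate number as a block, each library left out in turn and limma 3.58.1 on log2(FPKM + 0.1). The fit without WT replicate 1 quoted in the report kept the genes of the main filter and was chosen after seeing the data. The test was tried on simulated counts.

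The members and all gene lists were chosen with earlier results of these data known. The other genes named are *Ism1*, genes overlapping a member, the 4 most abundant and all called genes of each list, the natriuretic and SERCA lists in full and the 10 genes most like the members. Outside this rule, *Bmp10*, *Shox2*, *Cntn2*, *Hcn2*, *Hcn3*, *Myl2*, *Irx4*, *Myh4* and *Myog* were named after their values were seen. Abundant marker genes that bear on no member are given only through their list's sum. Coordinates are those of the deposited table, and they match GENCODE for 8 of the 9 genes (the entry of *Nkx2-5* is longer there). *Strit1* and *Arln* were not found under these symbols. Some genes of the pacemaker list are not reported here by name. Promoters of *Tbx5*, *Gata4* and *Sln* and protein sequences were not analysed here. No group has more than 3 libraries, so single libraries were not tested as outliers.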

Additional observations from a re-analysis of the deposited data

How the results depend on the processing

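The number of the 9 genes called moved from 1 to 0 with a filter on a mean above 2 CPM, which removes *Sbk2*, *Hcn4*, *Nkx2-5* and *Nppb*, to 7 without a filter, to 4 with DESeq2 and to 0 to 2 with each library left out. *Nkx2-5*, among the DESeq2 calls here and in the transcription factor list, passed the filter only through WT replicate 1. For the lists, here with members included, the filter on a mean above 2 CPM left 0 atrial chamber genes instead of 3 and 37 of all genes instead of 106. Without a filter the calls were 3 (natriuretic), 3 (transcription factors), 7 (pacemaker), 10 (atrial), 4 (SERCA) and 293 (all genes). DESeq2 called 2 transcription factors, 2 pacemaker genes and 1 atrial gene, the adjusted p of *Nppb* being NA there. FPKM with limma, an adjusted p of 0.05 and the fit without WT replicate 1 on the genes of the main filter each left 1 atrial gene, and an adjusted p of 0.05 left 51 of all genes. Without a fold minimum the counts were 1 (natriuretic), 2 (pacemaker), 1 (SERCA) and 882 (all genes). Leaving out each library gave 0 to 1 (natriuretic), 0 to 1 (pacemaker), 0 to 5 (atrial), 0 to 3 (SERCA) and 31 to 188 (all genes). *Tbx5* ranged from −0.09 to 0.17 with each library left out and changed sign without WT replicate 2 (−0.04), WT replicate 3 (−0.09) and *ISM1*-/- replicate 2 (−0.03). The causes were not tested.

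Same-numbered libraries did not deviate together (correlations −0.0405, 0.031 and 0.00101), so the numbers do not pair the mice. With the replicate block, 1 of the 9 genes was called (*Sbk2*, −2.08, adjusted p = 0.0308), with 2 atrial genes and 130 of all genes. The median log2 ratio of the members to the contractile genes was higher in *ISM1*-/- lungs by 0.03 to 0.35 with each library left out. It moved from its value with all libraries by less than the spread between them. Of the values of single members under alternatives, 121 kept their direction and side of the threshold, 10 passed it, 2 no longer did and 3 reversed. *Nppb* and *Nkx2-5* gave no value where WT replicate 1 was left out before filtering or where the filter was stricter. With 11.3 and 23.2 counts per library on average, *Nppb* and *Nkx2-5* are limited by depth, and the other members rest on means of 66.5 to 2457.3 counts.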
